A study of Mus musculus with 2 samples.

Results

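High endothelial cells line the postcapillary venules through which lymphocytes leave the blood and enter lymph nodes. The cells described here are the droplets of a lymph-node endothelial preparation that carried at least 20 Glycam1 and at least 10 Ccl21a UMIs (unique molecular identifiers, each standing for 1 captured transcript), with fewer than 2 UMIs summed over Cd79a, Cd79b, Ptprc and Cd3e. They were thus selected on the measured levels of these 6 genes. They also needed at least 500 detected genes, at most 10% mitochondrial UMIs, and a leading pool tag of at least 10 UMIs and at least 3 times the next tag. The gate kept 322 of 10612 barcodes: 50 from peripheral lymph nodes and 272 from mesenteric lymph nodes. The endothelium was sorted from the nodes of mice labelled WT or Xbp1-KO, with tamoxifen as the labelled treatment of both. Each of 2 droplet libraries mixed 4 tagged pools, 1 for each genotype at each site. Xbp1 codes for a factor that switches on genes when unfolded proteins build up in the secretory pathway. The labels name neither a Cre line, nor the number, age, strain or sex of the mice in a pool, and they describe the mincing, enzymatic digestion and CD45 depletion for pooled peripheral nodes alone. The question taken here is how high endothelium differs between the sites, with both genotypes in each side of the comparison, so that each site is represented by 4 pools, 1 for each genotype and library.

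High endothelial cells decorate sialomucins such as GlyCAM-1 with sulfated, fucosylated and sialylated glycans, the peripheral node addressin that L-selectin on lymphocytes binds, and they present the chemokine CCL21, which arrests rolling cells. In nodes that drain the gut, many of these venules also carry the mucosal addressin MAdCAM-1, the ligand of the integrin α4β7 on gut-homing lymphocytes. The homeobox factor Nkx2-3 is known as a regulator of MAdCAM-1 in blood vessels of the spleen and the gut.

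The gate kept 221 of 7709 barcodes of library 1 and 101 of 2903 of library 2, and 3 barcodes occurred in both libraries. The 4 peripheral sums held 5 and 7 cells (WT, libraries 1 and 2) and 34 and 4 cells (Xbp1-KO), against 75 and 40 (WT) and 107 and 50 (Xbp1-KO) in the mesenteric sums. The sums ranged from 29714 to 1033696 UMIs, and the median cell held 8578 UMIs in peripheral and 9513 in mesenteric pools. Values are given as CPM, the UMIs of a gene scaled to a common total for each sum. Xbp1 itself was lower in the Xbp1-KO sum of each of the 4 pairs of one site and library. It lay at 287.4 and 388.7 CPM (WT) against 230.8 and 235.6 CPM (Xbp1-KO) in peripheral sums and at 413.6 and 451.8 against 233.1 and 312.6 CPM in mesenteric sums. Xist, the RNA of the inactive X chromosome, was at 450.8 CPM or more in the WT pools of library 2 and the Xbp1-KO pools of library 1 and at 30.9 CPM or less in the other pools, with the same division in both tissues. Ddx3y, a Y-linked gene, showed the reverse in the mesenteric sums, at 66.2 and 59.97 CPM where Xist was low and at 4.31 and 1.94 CPM where it was high. The 2 libraries thus held different animals of each genotype, but the labels do not give how many animals made a pool, and the p-values measure the spread between these sums.

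Glycam1 and Ccl21a chose the cells, so their levels are a description. Glycam1 made up 24032, 214047, 238110 and 53544 CPM of the peripheral sums (WT library 1, WT library 2, Xbp1-KO library 1, Xbp1-KO library 2) and 58174, 121368, 152172 and 53186 CPM of the mesenteric sums in the same order. The ranges of the sites overlapped, and both sites held pools near the low end. Of the 322 cells, 5 had 20 to 24 Glycam1 UMIs, and 4 cells that met every other condition had 15 to 19. For Ccl21a, 2 cells had 10 to 12 UMIs and 1 cell just outside had 7 to 9. Of 10 high endothelial markers, 9 were detected in the gated cells. Detection of Glycam1 and Ccl21a was fixed by the gate, the others included Chst4, Fut7, Ubd and Enpp2, and Spon2 was at 0 in all 8 sums. All 7 pan-endothelial markers were detected.

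With every gated cell kept, the sites differed in few genes. Of 4333 genes tested, 3 passed an adjusted p of 0.05 in edgeR's quasi-likelihood test with Benjamini-Hochberg adjustment (0.0692% of genes; 2 higher, 0.0462%, and 1 lower, 0.0231%, in peripheral pools), and 332 had an unadjusted p under 0.05. Library 1 alone gave 57 calls and library 2 alone gave 0, with 165 unadjusted. A fit that pairs the pools of the same genotype and library gave 21 calls, 16 higher and 5 lower, and scaling by DESeq2 size factors gave 8, of which 7 were higher and 1 lower.

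The 3 genes were Marcks, Fstl1 and Pglyrp1. Marcks, which encodes a membrane-bound substrate of protein kinase C that binds actin, stood at 345.5, 130.6, 202.8 and 33.7 CPM in the peripheral sums (WT libraries 1 and 2, then Xbp1-KO libraries 1 and 2) and at 88.3, 45.2, 58.0 and 47.3 CPM in the mesenteric sums. In 3 of the 4 peripheral sums it lay above every mesenteric sum, and the Xbp1-KO sum of library 2, made of 4 cells, lay below them all. The fitted log2 difference was 1.65 ± 0.27 (SE; edgeR adjusted p = 0.00163). Fstl1, a secreted glycoprotein, lay at 33.7 to 129.6 CPM in peripheral and 17.2 to 36.8 CPM in mesenteric sums, a log2 difference of 1.80 ± 0.38 (edgeR adjusted p = 0.0368). Fstl1 passed the filter on low counts through its peripheral sums alone, so its call is a description. Pglyrp1, a peptidoglycan recognition protein, was lower in peripheral sums, at 606 ± 267 CPM (SD, n = 4) against 1108 ± 217 CPM, and these groups did not overlap, as was the case for 4.22% of all genes tested in that direction (1.08% in the other). Its log2 difference was -1.01 ± 0.20 (edgeR adjusted p = 0.0158). Without library 1, none of the 3 passed: Marcks gave 1.09 (edgeR adjusted p = 0.946), Pglyrp1 gave -1.10 (edgeR adjusted p = 0.931), and Fstl1 could not be tested. Marcks was also lost without the Xbp1-KO peripheral pool of library 1 (1.36), Fstl1 without that pool (1.58), without the Xbp1-KO mesenteric pool of library 1 (1.56) or without the WT peripheral pool of library 2 (1.67), and Pglyrp1 without the same 3 pools (-1.06, -1.03 and -0.86).

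Markers of lymphatic endothelium moved with Marcks and Fstl1. The 6 lymphatic markers other than Ccl21a summed to 67.3 to 690.9 CPM in the peripheral sums (median 319.8) and to 8.62 to 108.9 CPM in the mesenteric sums (median 54.6). In lymphatic cells of the same libraries, taken as those with at least 3 UMIs of Prox1, Lyve1, Mmrn1 and Reln, Marcks averaged 1350 ± 189 CPM and Fstl1 457 ± 94.1 CPM (SD over 8 sums), against 272 ± 39.9 and 56.9 ± 16.2 CPM in blood endothelial cells outside the gate. Of the 50 peripheral cells, 15 carried a UMI of Prox1, Lyve1, Mmrn1 or Reln and 9 had a leading tag under 10 times the next. In 8 of those 9 cells the second tag was that of a mesenteric pool. Together 16 peripheral cells had one or both features, as did 68 of the 272 mesenteric cells. The 16 peripheral cells held 42.5% of the peripheral UMIs but 84.8% of the Marcks and 71.4% of the Fstl1 UMIs.

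More genes differed between the sites without these cells. When the tag rule was raised to 10 times the next tag, 28 of 3844 genes were called (0.728%; 10 higher and 18 lower in peripheral sums). When cells with a lymphatic UMI were left out instead, 23 of 3259 were called (0.706%; 8 higher and 15 lower). Both sets had 17 genes in common, with the same direction in each: 11 were lower and 6 higher in peripheral high endothelium. Applying both exclusions at once, a step chosen after the data had been seen, left 34 peripheral cells (2, 5, 24 and 3 a pool) and 204 mesenteric cells (38 to 77 a pool). It gave 22 calls of 3207 genes (0.686%; 8 higher, 0.249%, and 14 lower, 0.437%; 212 unadjusted), which included all 17. Library 1 alone gave 13 calls and library 2 alone gave 7. Marcks then stood at 37.3 to 79.7 CPM in peripheral and 40.8 to 46.9 CPM in mesenteric sums (0.36 ± 0.51, edgeR adjusted p = 0.946). Fstl1 and Pglyrp1 did not pass either, at 1.02 ± 0.55 and -0.77 ± 0.29 (edgeR adjusted p = 0.830 and 0.418), although Pglyrp1 had passed under the tag rule alone (-0.85 ± 0.23, edgeR adjusted p = 0.0319). Of the 6 lymphatic markers, Prox1, Lyve1, Mmrn1 and Reln were then at 0 by construction, and the others, Flt4 and Pdpn, summed to 0 to 15.95 CPM in peripheral and 2.34 to 20.7 CPM in mesenteric sums. The values below are from the cells left by both exclusions unless stated otherwise.

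**Figure D1:**
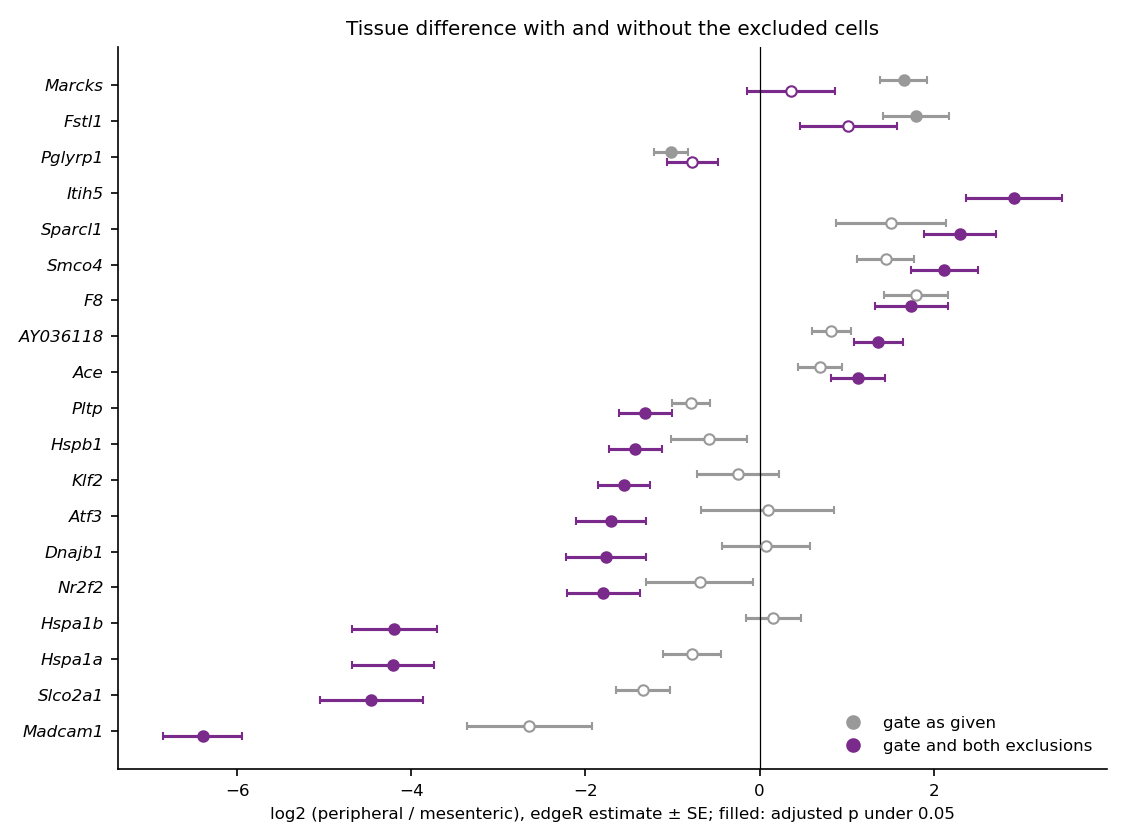
Log2 difference between peripheral and mesenteric sums (horizontal axis; points with SE bars from edgeR, 8 sums) in the gate as given (grey) and under both exclusions (purple), for the genes called in the gate as given or under each exclusion. Filled points passed an adjusted p of 0.05: Marcks, Fstl1 and Pglyrp1 passed in the gate as given and not under both exclusions, and Madcam1 moved from -2.64 to -6.40. Nkx2-3, at 0 in every peripheral sum, is not drawn, and Itih5 was under the filter in the gate as given.

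The largest fitted difference of a gene with peripheral counts was that of Madcam1 (ENSMUSG00000020310, chr10:79664559-79668537 on GRCm38), the gene of the mucosal addressin. The peripheral sums held 0, 149.2, 5.32 and 0 CPM (WT libraries 1 and 2, then Xbp1-KO libraries 1 and 2). The mesenteric sums held 3878.7, 3753.5, 3671.1 and 3439.7 CPM. Every mesenteric sum was thus more than an order of magnitude above the highest peripheral one, and the groups did not overlap, as for 6.52% of all genes tested in that direction. The log2 difference was -6.40 ± 0.45 (edgeR adjusted p = 7.25e-41), from 9 peripheral and 7174 mesenteric UMIs. It kept its sign and passed in all 15 alternatives run on these cells, with -9.43 to -5.08 over the leave-outs. Madcam1 passed the filter on low counts through its mesenteric sums alone, so these calls are a description and not support for the difference. In the gate as given the peripheral sums held 1252.3, 679.3, 439.8 and 0 CPM and the mesenteric sums 2659.5 to 3970.5 CPM. That difference, -2.64 ± 0.72, did not pass (edgeR adjusted p = 0.580).

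The peripheral Madcam1 came from few cells. Of the 50 peripheral cells, 7 had a Madcam1 UMI (14.0%, exact Clopper-Pearson 95% interval 5.82 to 26.7%), against 178 of 272 mesenteric cells (65.4%, 59.5 to 71.1%). The 4 peripheral cells with the most held 121, 58, 44 and 15 UMIs, and in each the second tag was mesenteric, with 1063, 1904, 183 and 1032 tag UMIs. The leading tag of these 4 cells was 3.31, 3.88, 7.05 and 3.84 times the second, and the cells carried 22, 7, 9 and 56 UMIs of the 4 lymphatic genes. A mesenteric second tag and lymphatic RNA thus occurred in the same cells. The 16 cells left out held 242 of the 251 peripheral Madcam1 UMIs (96.4%). Under both exclusions 2 of 34 peripheral cells had a Madcam1 UMI (5.88%, 0.721 to 19.7%) and 133 of 204 mesenteric cells did (65.2%, 58.2 to 71.7%). With every cell thinned to 2000 UMIs the shares were 0 of 33 (exact upper bound 10.6%; a limit of 3 counts gives 9.09%) and 57.6%, with 1 cell of each site too shallow to enter. For comparison, among blood endothelial cells outside the gate 2.78% of peripheral and 3.69% of mesenteric cells had a Madcam1 UMI, at median depths of 2610 and 2738 UMIs. In the lymphatic cells defined above 17.7% of peripheral and 23.2% of mesenteric cells had one, at a mean of 87.6 ± 29.4 CPM (SD over 8 sums). Intervals and limits cover counting error only.

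**Figure D2:**
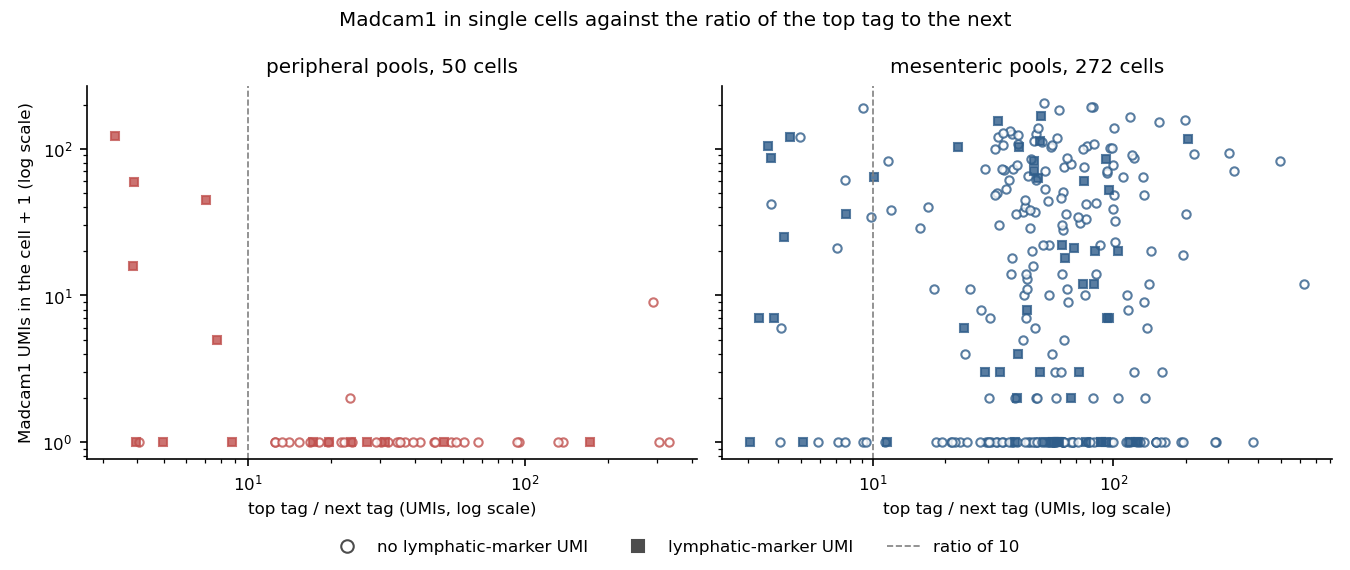
Each point is 1 gated cell, with the ratio of its leading tag to the next on the horizontal axis and its Madcam1 UMIs plus 1 on the vertical axis (both log scales). The 4 peripheral cells with 15 or more Madcam1 UMIs all lie left of the dashed line at a ratio of 10 and carry lymphatic UMIs, whereas mesenteric cells with many Madcam1 UMIs lie on both sides of it.

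Nkx2-3 (ENSMUSG00000044220, chr19:43612325-43615892), the homeobox factor named above, followed the same pattern at a far lower level. The mesenteric sums held 49.1, 77.1, 54.7 and 63.3 CPM (WT libraries 1 and 2, then Xbp1-KO libraries 1 and 2), and all 4 peripheral sums were at 0. Over the group that is 0 of 272197 peripheral UMIs against 118 of 1949327 mesenteric UMIs, at least 5.49-fold lower in peripheral cells when 3 UMIs are taken as the limit that a count of 0 allows for the whole group. The gene passed the filter on low counts through its mesenteric sums alone, so its call (edgeR adjusted p = 0.00227) is a description and not support for the difference. The call was lost without library 1, without library 2 and without the Xbp1-KO peripheral pool of library 1 (edgeR adjusted p = 0.757, 0.145 and 0.283). It held in 4 of the 7 leave-outs that tested the gene, which was not tested without the WT mesenteric pool of library 2 or without either Xbp1-KO mesenteric pool. All 7 Nkx2-3 UMIs of the gate as given lay in 3 of the 4 peripheral cells described above. By cell, 69 of 204 mesenteric cells had a UMI (33.8%, exact interval 27.4 to 40.8%), and 0 of 34 peripheral cells did (exact upper bound 10.3%; a limit of 3 counts gives 8.82%).

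The difference in Nkx2-3 was not limited to high endothelium. In 4873 other blood endothelial cells of the same pools, where 387 of 9627 genes were called (4.02%; 205 higher, 2.13%, and 182 lower, 1.89%), Nkx2-3 averaged 2.32 ± 3.97 CPM in peripheral and 70.9 ± 17.4 CPM in mesenteric sums (SD, n = 4), a log2 difference of -5.81 ± 0.61 (edgeR adjusted p = 0.00848). Nkx2-3 passed the filter on low counts there through its mesenteric sums alone, so this call too is a description. A UMI was found in 0.193% of the peripheral and 15.5% of the mesenteric cells of that class. Madcam1 stood at 9.28 ± 4.38 and 42.5 ± 40.2 CPM there, a difference that did not pass (-2.23 ± 0.52, edgeR adjusted p = 0.130). The mesenteric level of Nkx2-3 in the other blood endothelium was thus close to that in high endothelium, at 61.0 ± 12.2 CPM, while the mesenteric level of Madcam1 was lower by more than an order of magnitude. The test of whether the site difference itself differed between the classes did not pass for either gene (Nkx2-3 -3.35 ± 4.75, edgeR adjusted p = 0.906; Madcam1 -4.65 ± 1.82, edgeR adjusted p = 0.601). With the gate as given, where the peripheral Nkx2-3 UMIs of the cells described above were still counted, the class test of Nkx2-3 passed in the other direction (3.56 ± 0.90, edgeR adjusted p = 0.00918).

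Slco2a1 and Pltp were lower in peripheral high endothelium too. Slco2a1 (ENSMUSG00000032548, chr9:102988712-103096002) encodes a prostaglandin transporter. It held 0, 0, 5.32 and 111.3 CPM in the peripheral and 245.7, 145.2, 333.9 and 271.8 CPM in the mesenteric sums. The peripheral group had 3 UMIs against 507, a mesenteric level 23.6-fold that of the peripheral one (exact 95% counting interval 8.03 to 114.8; edgeR adjusted p = 4.94e-11), and 37 of the 40 peripheral UMIs of the gate as given lay in the cells left out. Slco2a1 passed the filter on low counts through its mesenteric sums alone, so this call is a description and not support for the difference. Leaving out library 1 ended the call (-2.63, edgeR adjusted p = 0.335). In the gate as given Slco2a1 had missed the threshold, at -1.34 ± 0.31 (edgeR adjusted p = 0.0579; 0.0180 with the pools paired by genotype and library). In the other blood endothelium it was lower in peripheral sums as well, by a smaller amount (-1.06 ± 0.16, edgeR adjusted p = 0.00759), and the difference between the classes passed (-2.65 ± 0.69, edgeR adjusted p = 0.0419).

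Pltp (ENSMUSG00000017754, chr2:164839518-164857711), the plasma phospholipid transfer protein, was detected in every sum. It held 159.5, 373.0, 212.7 and 389.5 CPM in the peripheral and 788.7, 714.4, 733.9 and 763.9 CPM in the mesenteric sums, so that every mesenteric pool lay above all peripheral pools and the mesenteric pools lay close together. The groups did not overlap in that direction for 6.52% of all genes tested. The log2 difference was -1.31 ± 0.30 (edgeR adjusted p = 0.00416). Without library 1 it was -0.92 (edgeR adjusted p = 0.909), and it was also lost without either Xbp1-KO pool of library 1 (-1.38 and -1.15) or the Xbp1-KO mesenteric pool of library 2 (-1.38). In the other blood endothelium Pltp stood at 525 ± 77.1 and 518 ± 37.5 CPM (0.013 ± 0.097), and the difference between the classes passed (-1.29 ± 0.30, edgeR adjusted p = 0.0104).

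The 250 bases before the RefSeq start of the 4 genes are given because the genes were lower in peripheral high endothelium together and Nkx2-3 encodes one of the factors known for Madcam1. Capitals mark matches to the core letters of the NKX2 family (AAGTG or its reverse complement CACTT) and to an NF-kB site, and sequences run 5′ to 3′ on the gene's strand. No 2 matches overlapped. They are from RefSeq on GRCm38.p6: Madcam1 at chr10:79664309-79664558 (+), Slco2a1 at chr9:103008237-103008486 (+, from a RefSeq start inside the gene span given above), Pltp at chr2:164857709-164857958 (-) and Nkx2-3 at chr19:43612075-43612324 (+).
Madcam1: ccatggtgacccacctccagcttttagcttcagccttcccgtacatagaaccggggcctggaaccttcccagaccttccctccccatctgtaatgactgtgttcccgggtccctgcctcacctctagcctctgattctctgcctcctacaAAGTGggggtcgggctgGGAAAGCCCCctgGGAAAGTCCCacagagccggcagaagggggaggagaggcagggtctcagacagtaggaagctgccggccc
Slco2a1: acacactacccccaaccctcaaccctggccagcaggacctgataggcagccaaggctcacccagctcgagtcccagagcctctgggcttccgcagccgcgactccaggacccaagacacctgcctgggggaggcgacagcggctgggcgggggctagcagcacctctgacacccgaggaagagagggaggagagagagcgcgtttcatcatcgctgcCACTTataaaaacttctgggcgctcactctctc
Pltp: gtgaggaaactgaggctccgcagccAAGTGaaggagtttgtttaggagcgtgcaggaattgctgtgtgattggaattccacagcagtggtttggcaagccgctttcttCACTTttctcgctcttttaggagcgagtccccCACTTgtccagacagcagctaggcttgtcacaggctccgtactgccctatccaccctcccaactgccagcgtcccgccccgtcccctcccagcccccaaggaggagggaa
Nkx2-3: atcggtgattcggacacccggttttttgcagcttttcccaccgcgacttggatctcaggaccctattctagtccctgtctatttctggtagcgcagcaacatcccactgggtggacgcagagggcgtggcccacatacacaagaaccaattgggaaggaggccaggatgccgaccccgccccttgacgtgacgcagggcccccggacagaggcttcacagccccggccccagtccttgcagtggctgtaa
Madcam1 holds 1 NKX2 match, 100 bases before the start, and 2 NF-kB matches, GGAAAGCCCC at 83 and GGAAAGTCCC at 70 bases. Slco2a1 holds 1 NKX2 match at 33 bases, Pltp holds 3 at 225, 142 and 110 bases, and Nkx2-3 holds neither motif. Among 32851 promoter windows of the same length, 40.7% hold AAGTG or CACTT and 1.41% hold an NF-kB match. The matches are a description of the letters in these windows.

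Further transcription factors of endothelium were lower in peripheral sums. Nr2f2 (ENSMUSG00000030551, chr7:70351944-70366735), a nuclear receptor of venous identity, held 0, 37.3, 69.1 and 0 CPM in the peripheral and 193.9, 167.8, 202.9 and 215.6 CPM in the mesenteric sums. The 2 peripheral sums at 0 were also the 2 smallest, with 12540 and 17973 UMIs. Its log2 difference was -1.80 ± 0.42 (edgeR adjusted p = 0.00416). It was lost in 5 of 10 leave-outs, among them each library (-2.62 without library 1 and -1.56 without library 2), the WT peripheral pool of library 2 (-1.87) and either Xbp1-KO mesenteric pool (-1.86 and -1.76). Klf2, a factor induced by laminar flow, held 0 to 503.5 CPM in peripheral and 716.7 to 2465 CPM in mesenteric sums (-1.56 ± 0.30, edgeR adjusted p = 0.000119). DESeq2's Wald test called neither gene (adjusted p = 0.102 for Nr2f2 and 0.0990 for Klf2). Klf2 was lost without either library (-1.70 and -1.42) or either Xbp1-KO mesenteric pool (-1.70 and -1.20). With Nkx2-3 and Id1, a target of BMP signalling, these made 4 of 19 measured endothelial transcription factors lower and 0 higher, against 0.437% of all genes called lower. Nkx2-3, Nr2f2 and Klf2 count among the 4 and the 19 through their mesenteric sums alone, so their calls are a description. The median of those 19 genes was -0.26 and that of all 3207 genes -0.12. In the other blood endothelium Nr2f2 was lower in peripheral sums by -0.50 ± 0.12 (edgeR adjusted p = 0.0204), and Klf2 gave -0.80 ± 0.23 (edgeR adjusted p = 0.23). In the gate as given, neither passed (Nr2f2 -0.69 and Klf2 -0.25), and Klf2 turned to 0.31 in the WT pools.

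**Figure D3:**
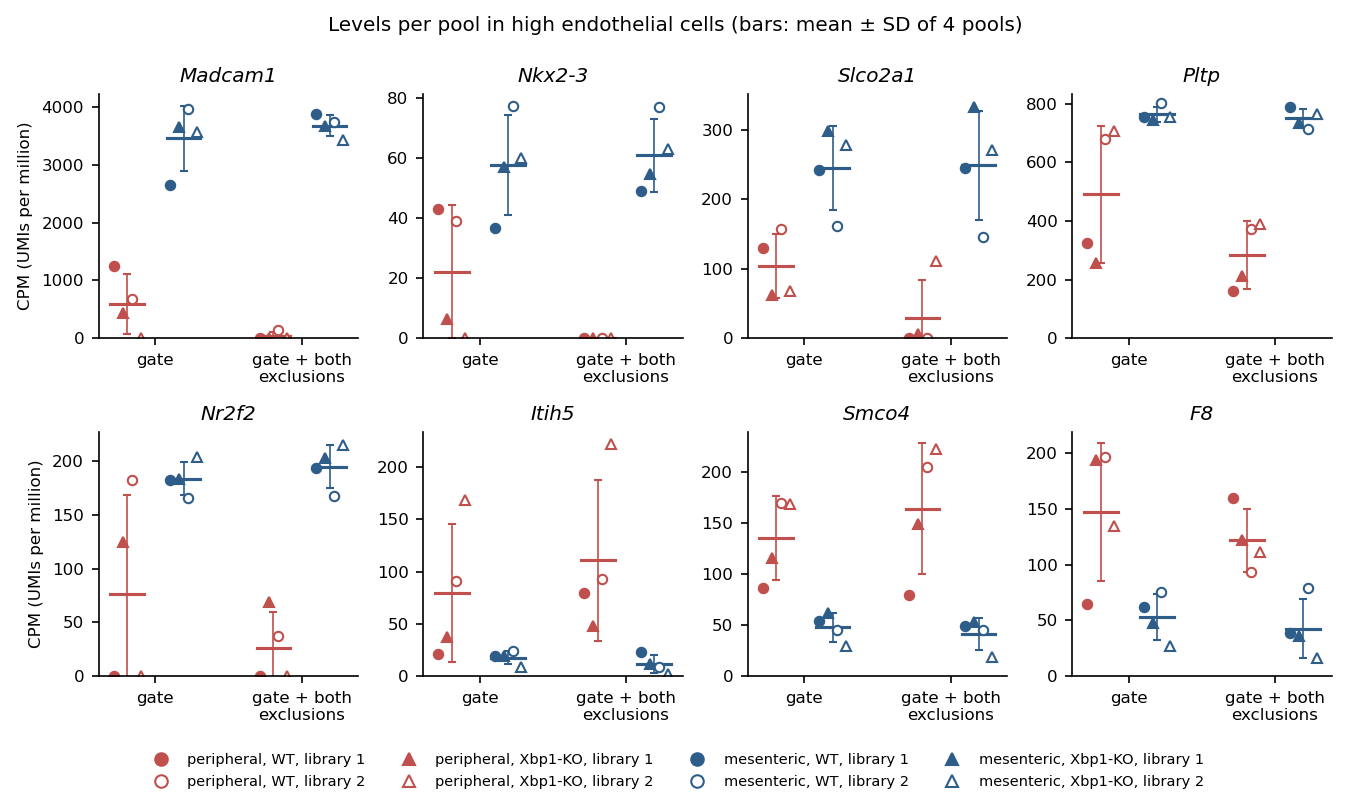
CPM of 8 genes in each pool, in the gate as given and after both exclusions (red peripheral, blue mesenteric; circles WT, triangles Xbp1-KO; filled library 1, open library 2). Horizontal lines are means and bars SDs of 4 pools, cut at 0. Under both exclusions no peripheral pool of Madcam1, Nkx2-3, Slco2a1, Pltp or Nr2f2 reached the lowest mesenteric pool, and every peripheral pool of Itih5, Smco4 and F8 lay above the highest mesenteric one. Of all genes tested, 6.52% did not overlap in the first direction and 0.686% in the second.

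Under both exclusions 5 stress-response genes were lower in peripheral sums: Hspa1a, Hspa1b, Dnajb1, Hspb1 and Atf3. Hspa1a and Hspa1b, adjacent and near-identical genes of the inducible chaperone HSP70 between which the counting could divide reads, held 0, 18.6, 15.95 and 111.3 CPM and 0, 18.6, 10.6 and 111.3 CPM in the peripheral sums. In the mesenteric sums they held 284.4, 544.3, 434.6 and 808.4 CPM and 219.8, 555.7, 329.5 and 738.1 CPM. Neither pair of groups overlapped, as for 6.52% of all genes tested in that direction. The log2 differences were -4.21 ± 0.47 and -4.19 ± 0.49 (edgeR adjusted p = 7.35e-16 and 1.23e-14). Both passed in all 15 alternatives on these cells. They had passed the filter on low counts through their mesenteric sums alone, so these calls are a description and not support for the difference. Dnajb1, a co-chaperone of HSP70, gave -1.76 ± 0.46, the small heat shock protein gene Hspb1 gave -1.42 ± 0.31, and Atf3, a stress-induced transcription factor, gave -1.71 ± 0.40 (edgeR adjusted p = 0.0219, 0.000984 and 0.00416). Of 20 measured genes of the immediate early and dissociation response, 4 (Atf3, Hspa1a, Hspa1b and Dnajb1) were lower and 0 higher, with a list median of -0.29. All 4 count among the 20 through their mesenteric sums alone, so this count is a description. Over all 3207 genes 0.437% were called lower, and the median was -0.12. In the gate as given the list had 0 calls, 17 of 20 positive estimates and a median of 0.25, and Hspa1b stood at 447 ± 120 and 456 ± 214 CPM in the 2 sites. The 16 peripheral cells left out held 94.0% of the Hspa1a and 97.5% of the Hspa1b UMIs of the peripheral group. In the other blood endothelium Hspa1a was lower in peripheral sums by -1.52 ± 0.16 and Hspa1b by -1.60 ± 0.18 (edgeR adjusted p = 0.0192 and 0.0237), and the difference between the classes passed for both (-2.66 ± 0.61 and -2.58 ± 0.64, edgeR adjusted p = 0.0104 and 0.0257). The nodes of the 2 sites are separate preparations, and site and preparation cannot be told apart here. Dnajb1 was lost in 8 of 10 leave-outs, Atf3 in 6 and Hspb1 in 4, over which the differences ran from -2.78 to -1.29, from -2.33 to -1.41 and from -1.86 to -0.98. DESeq2's Wald test called none of these 3 (adjusted p = 0.261, 0.189 and 0.189).

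The 6 genes higher in peripheral high endothelium under each exclusion were Itih5, Sparcl1, Smco4, F8, Ace and AY036118. Itih5 (ENSMUSG00000025780, chr2:10153571-10256529), of the family of hyaluronan-binding inter-alpha-trypsin inhibitor heavy chains, held 79.7, 93.2, 47.9 and 222.6 CPM in the peripheral and 23.3, 9.07, 11.5 and 2.34 CPM in the mesenteric sums. The groups did not overlap, as for 0.686% of all genes tested in that direction, and the log2 difference was 2.92 ± 0.55 (edgeR adjusted p = 6.22e-05) from 19 peripheral and 22 mesenteric UMIs. Itih5 passed the filter on low counts through its peripheral sums alone, so its call is a description and not support for the difference. It was lost without library 2 (2.03, edgeR adjusted p = 0.191) and could not be tested without library 1, so that neither library alone gave the call, and it was called in the other 13 alternatives. Sparcl1, a matricellular protein first described in high endothelium as hevin, held 95.7 to 556.4 CPM in peripheral and 8.63 to 106.0 CPM in mesenteric sums (2.30 ± 0.42, edgeR adjusted p = 3.39e-05). F8, the gene of coagulation factor VIII, held 159.5, 93.2, 122.3 and 111.3 CPM against 38.8, 79.4, 36.0 and 16.4 CPM (1.74 ± 0.42, edgeR adjusted p = 0.00703). F8 averaged 703 ± 246 CPM in lymphatic cells and 17.0 ± 4.96 CPM in the other blood endothelium (SD over 8 sums), and 61.9% of its peripheral UMIs in the gate as given lay in the cells left out. Smco4, a small membrane protein, held 79.7 to 222.6 CPM against 18.7 to 53.2 CPM (2.12 ± 0.39, edgeR adjusted p = 2.79e-05). Sparcl1, F8 and Smco4 also passed the filter through their peripheral sums alone, so their calls are a description. Ace, the angiotensin-converting enzyme, gave 1.13 ± 0.31, and AY036118, a long noncoding RNA of chromosome 17, gave 1.37 ± 0.28 (edgeR adjusted p = 0.0378 and 0.000394). With Sparcl1 and Itih5, 2 of 15 measured matrix genes were higher and 0 lower, against 0.249% of all genes called higher. Both count among the 15 through their peripheral sums alone, so this count is a description. Of the genes other than Itih5, AY036118 was lost in 3 of 10 leave-outs, Sparcl1 in 4, Smco4 in 5, F8 in 6 and Ace in 8, with the differences from 0.81 to 1.80, 1.83 to 3.22, 1.53 to 2.68, 0.94 to 2.15 and 0.83 to 1.43. F8 and Ace were not called by DESeq2's Wald test (adjusted p = 0.217 and 0.0669), and over all 15 alternatives on these cells F8 was called in 6 and Ace in 3.

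Itih5, Smco4 and AY036118 were higher at the peripheral site in the other blood endothelium too, at 1.70 ± 0.15, 0.56 ± 0.080 and 0.25 ± 0.051 (edgeR adjusted p = 0.00105, 0.000219 and 0.00717). Smco4 and Sparcl1 differed more between the sites in high endothelium than in the other class (1.58 ± 0.37 and 1.89 ± 0.43, edgeR adjusted p = 0.0105 and 0.0104). The difference between the classes did not pass for Itih5, F8, Ace and AY036118 (edgeR adjusted p = 0.630, 0.356, 0.188 and 0.215). Sparcl1 did not pass in the other class, at 1228 ± 73.5 and 1118 ± 77.6 CPM (0.13 ± 0.045, edgeR adjusted p = 0.149). Further calls under both exclusions were Cavin2 and Id1, lower in peripheral sums (-2.81 and -1.30), and H2-Aa and Ptgds, higher (1.58 and 2.20; edgeR adjusted p = 0.0154, 0.0451, 0.0345 and 0.0219). Each of these 4 passed in 1 of the 2 single exclusions.

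The machinery that builds the ligand of L-selectin did not pass in any direction. Of the genes of 6-sulfo sialyl Lewis X and O-glycan synthesis, 12 were measured in the gate as given and 9 under both exclusions, and 0 were called in either. Fut7, the fucosyltransferase of the ligand, held 956.9, 540.8, 271.2 and 389.5 CPM in the peripheral and 367.2, 501.2, 319.5 and 569.4 CPM in the mesenteric sums (0.13 ± 0.28, edgeR adjusted p = 0.959). Chst4, its high endothelial sulfotransferase, held 0, 74.6, 159.5 and 0 CPM against 155.1, 140.6, 66.2 and 131.2 CPM (0.19 ± 0.36, edgeR adjusted p = 0.958). The 2 peripheral pools at 0 held 2 and 3 cells. Gcnt1, which makes core 2 branches, gave 0.47 ± 0.31, Enpp2, the lysophosphatidic acid-producing autotaxin, gave -0.10 ± 0.28, and Ubd, a ubiquitin-like modifier, gave 0.21 ± 0.28 (edgeR adjusted p = 0.883, 0.960 and 0.936). Cd34, one of the sialomucin scaffolds, gave -0.21 ± 0.29 and Xbp1 -0.10 ± 0.29 (edgeR adjusted p = 0.943 and 0.964). A p that misses the threshold does not show that these genes are equal between the sites. Ch25h, another of the 10 high endothelial markers, was not called either. It held 0 to 79.8 CPM in peripheral and 113.7 to 248.4 CPM in mesenteric sums. These groups did not overlap, as for 6.52% of all genes tested in that direction. St6gal1, a sialyltransferase, was under the filter, with 2 peripheral and 18 mesenteric UMIs in the gate as given (mesenteric over peripheral 1.56, exact counting interval 0.374 to 13.9), and Podxl, another sialomucin, was under it after both exclusions.

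**Figure D4:**
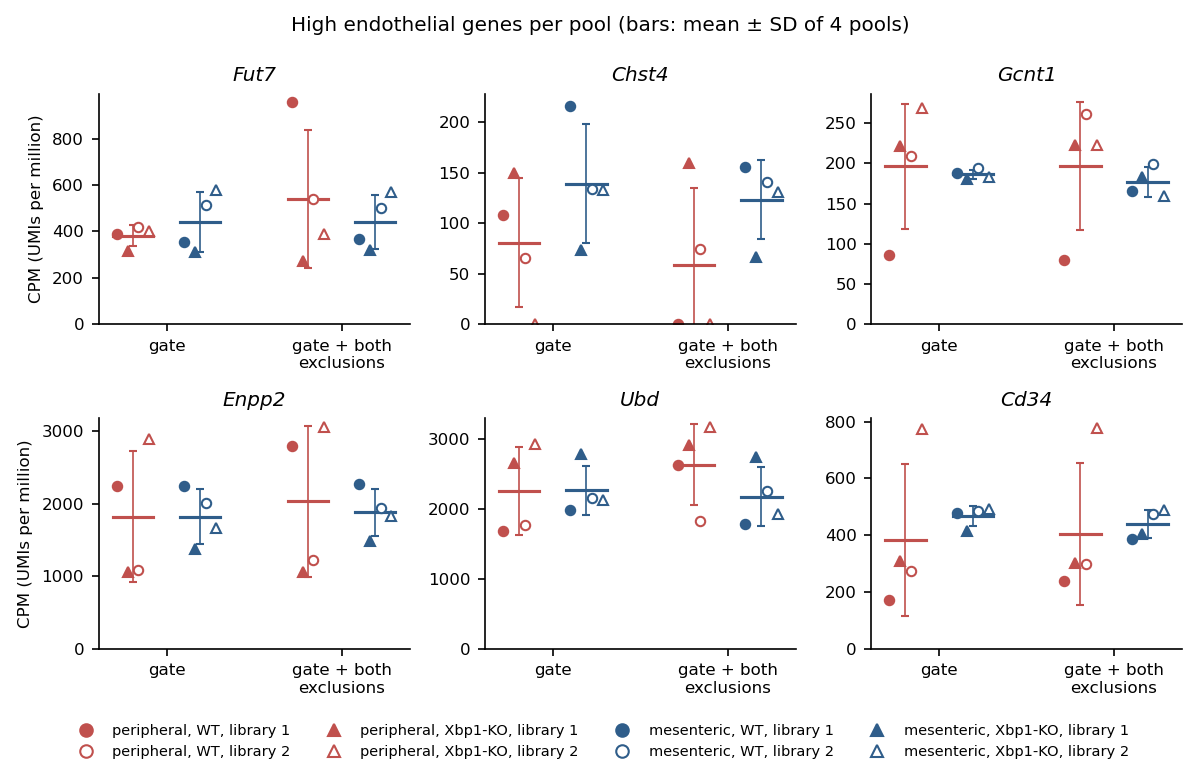
CPM of 6 genes of the high endothelial program in each pool, in the gate as given and after both exclusions (colours and symbols as labelled; lines are means and bars SDs of 4 pools). The peripheral pools lie on both sides of the mesenteric ones for Fut7, Gcnt1, Enpp2 and Cd34 under both exclusions, with a wider spread. Ch25h, whose peripheral sums all lay below the mesenteric ones under both exclusions, is not drawn.

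Across the other gene lists few members moved. No list had a call in the gate as given. Under both exclusions, where 0.437% of all genes were called lower and 0.249% higher, 1 of 15 adhesion and lymphocyte capture genes was lower (Madcam1), and the other 14, among them Icam1 (-0.28), Vcam1 (0.48), Selp (-0.28) and Bst1 (0.97), did not pass. Madcam1 counts among the 15 through its mesenteric sums alone. Of 18 antigen presentation genes, 1 was higher (H2-Aa) and 17 had a positive estimate, with a list median of 0.24. Of 30 genes of ER chaperones and XBP1 targets, 0 passed, with 22 estimates negative and a median of -0.18. Of all 3207 genes 1936 had a negative and 1271 a positive estimate, with a median of -0.12. Of 4 measured positional transcription factors 0 passed; Hoxa5 gave -1.72 ± 0.69 and Hoxa7 -1.33 ± 0.59 (edgeR adjusted p = 0.472 and 0.579). The lists for sialomucin scaffolds (4 measured), sialic acid caps (2), sugar nucleotide and sulfate supply (5), chemokines and scavengers (4), lymphocyte cytokines (3), lymphotoxin receptor and NF-kB (13), interferon-stimulated genes (20), lysophospholipid genes (4), retinoid handling (4) and growth factor signalling (16) had 0 calls. Of the other lists, high endothelial reference genes had 1 lower of 9 (Slco2a1), fatty acid and cholesterol handling 1 lower of 8 (Pltp), and haemostasis 1 higher of 8 (F8). Of the 9 reference genes, 7 had a negative and 2 a positive estimate, with a median of -0.34. Slco2a1 counts here through its mesenteric sums alone, and F8 through its peripheral sums alone.

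Set against the other blood endothelium with the gate as given, 96 of 8453 genes had a site difference that differed between the classes (1.14%; 56 more positive, 0.662%, and 40 more negative, 0.473%, in high endothelium). This split depends on the scaling: DESeq2 size factors gave 71 and 30, with the median over all genes moving from -0.17 to -0.05. The gate kept cells with lymphatic UMIs whereas the other class had none, and under both exclusions 24 of 7571 were called (0.317%; 10 and 14), 15 of them among the 96. By p, the leading 5 of the first set were Ccn1, Serpina1b, Serpinb1a, Igfbp4 and Enpp2. Serpina1b, a serine protease inhibitor, stood at 213 ± 94.9 CPM in peripheral and 433 ± 149 CPM in mesenteric high endothelium, where the groups overlapped and the site difference did not pass (-0.91 ± 0.25, edgeR adjusted p = 0.154). In the other class it was higher in peripheral sums, at 76.5 ± 23.9 against 40.5 ± 10.9 CPM. The difference between the classes was -1.998 ± 0.25 (edgeR adjusted p = 5.29e-12) and -1.87 ± 0.30 under both exclusions (edgeR adjusted p = 2.43e-06). Enpp2 in high endothelium stood at 1821 ± 904 and 1823 ± 385 CPM, and in the other class it was higher in peripheral sums, at 1002 ± 162 against 548 ± 58.7 CPM (-1.25 ± 0.19, edgeR adjusted p = 4.22e-08; -1.14 ± 0.28 and 0.0188 under both exclusions). Serpinb1a gave -1.76 ± 0.24 and -1.54 ± 0.29 under both exclusions, and Igfbp4, an insulin-like growth factor binding protein, gave 1.71 ± 0.25 and 1.33 ± 0.35, all past the threshold. Ccn1, a matricellular gene, fell from 2.16 ± 0.23 to 0.61 ± 0.36 (edgeR adjusted p = 0.671). Without library 1 the class test gave 16 calls and without library 2 it gave 63. Without library 1 the calls of Ccn1 (1.20), Igfbp4 (1.60) and Enpp2 (-1.16) were lost.

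The site difference was also compared between the genotypes, with 2 pools of each genotype at each site, and a low count of calls from these pools does not show that few genes differ. In the gate as given, 1 of 4333 genes had a site difference that differed between WT and Xbp1-KO pools (0.0231%; 168 unadjusted), and that was Atf3, with 1.48 ± 0.30 in WT and -1.27 ± 0.37 in Xbp1-KO pools (difference -2.89 ± 0.53, edgeR adjusted p = 0.0249). Atf3 held 539.8 and 444.2 CPM in WT peripheral, 102.9 and 201.9 in Xbp1-KO peripheral, 164.8 and 174.5 in WT mesenteric and 204.1 and 667.0 in Xbp1-KO mesenteric sums (libraries 1 and 2). Under both exclusions Atf3 did not pass (-1.54, edgeR adjusted p = 0.999), and 1 other gene of 3207 did (0.0312%), the chemokine gene Cxcl10 (-3.56 ± 0.78, edgeR adjusted p = 0.0171). For Madcam1 the site difference was -1.87 ± 0.19 in WT and -3.67 ± 0.68 in Xbp1-KO pools of the gate as given, and the test of that difference gave an edgeR adjusted p of 0.9998. 

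Mesenteric high endothelium was itself divided by Madcam1, and the following comparison was chosen after its values had been seen. It uses the gate as given, without the exclusions. Within each mesenteric pool, cells with at least 5 Madcam1 UMIs (155 cells in all) were summed apart from cells with 0 (94 cells), and the pool was kept as a block. Of 3402 genes, 25 passed (0.735%; 11 higher, 0.323%, and 14 lower, 0.412%, with Madcam1), of which Madcam1 defined the division. Nkx2-3 was among the 10 others that were higher: it held 60.9, 105.7, 77.7 and 94.8 CPM in cells with Madcam1 (WT libraries 1 and 2, then Xbp1-KO libraries 1 and 2) and 7.37, 36.2, 17.0 and 0 CPM in cells without, 4 of 4 pools in the same direction (2.37 ± 0.39, edgeR adjusted p = 0.00109). Stra6, the cell-surface receptor for retinol-binding protein, for which the sites had not differed past the threshold (under both exclusions -1.32 ± 0.62, edgeR adjusted p = 0.644), gave 2.05 ± 0.28, Slco2a1 1.71 ± 0.26 and Pltp 0.93 ± 0.14 (edgeR adjusted p = 4.52e-05, 0.0146 and 0.00372), each in 4 of 4 pools. Pltp stood at 961 ± 82.7 CPM with and 464 ± 114 CPM without Madcam1. Mgll, Rasa4, Cd55, Cd74, Arhgdia and Iqgap1 were higher as well, by 0.47 to 1.56. Nkx2-3, Stra6, Slco2a1 and Mgll passed the filter on low counts through the cells with Madcam1 alone, so their calls are a description and not support. Nkx2-3 and Pltp, lower at the peripheral site under both exclusions, were also lower in mesenteric cells without Madcam1 in either cell set. For Slco2a1 the division by Madcam1 did not pass under both exclusions (1.57 ± 0.34, edgeR adjusted p = 0.120).

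Lower in mesenteric cells with Madcam1 were Tgm2, a transglutaminase (-1.17 ± 0.22, edgeR adjusted p = 0.00519), Chst2, a sulfotransferase of the L-selectin ligand (-0.78 ± 0.18, edgeR adjusted p = 0.0272), and Cd300lg, the sialomucin nepmucin (-0.61 ± 0.14, edgeR adjusted p = 0.0248). Tgm2 stood at 82.0 ± 53.1 CPM with and 181 ± 73.6 CPM without Madcam1, and was lower with it in 4 of 4 pools. Tgm2 passed the filter through the cells without Madcam1 alone, so its call is a description. The other 11 were Abhd17b, Adamts1, Pgrmc2, Vamp8, Tmem252, Ctsl, Rps3, Tmem176a, Fth1, Malat1 and Tmsb4x, at -1.07 to -0.22. Fut7 gave -0.14 ± 0.13, Chst4 -0.59 ± 0.18 and Nr2f2 0.53 ± 0.19 (edgeR adjusted p = 0.921, 0.173 and 0.293). Of the genes higher in peripheral sums, Smco4 gave -1.56 ± 0.42, Sparcl1 -1.17 ± 0.30 and F8 -0.96 ± 0.40 in cells with Madcam1, and none of them passed (edgeR adjusted p = 0.175, 0.0682 and 0.524). Under both exclusions 13 of 2412 genes passed (0.539%; 8 higher, 0.332%, and 5 lower, 0.207%), and 10 were shared with the 25: Madcam1, Nkx2-3, Stra6, Pltp, Rasa4, Cd74, Tgm2, Ctsl, Rps3 and Fth1. Leaving out single pools gave 10 to 31 calls. Nkx2-3, Stra6, Pltp, Rps3 and Ctsl passed in all 8 alternatives, and Slco2a1 in 7. For Nkx2-3, Stra6 and Slco2a1 these passes are a description, given how the genes passed the filter. The fewest calls, 10, came without the Xbp1-KO mesenteric pool of library 2, and 14 without the WT mesenteric pool of library 2.

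**Figure D5:**
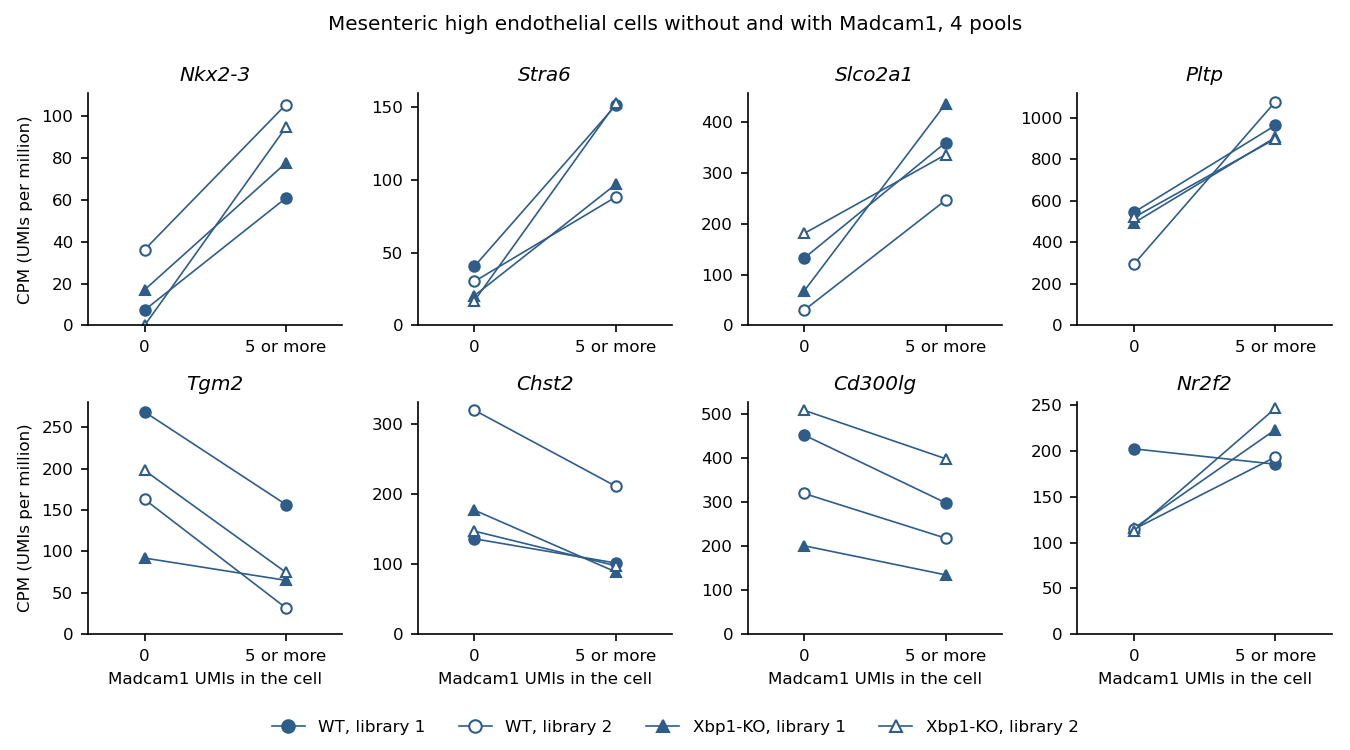
CPM of 8 genes in mesenteric gated cells with 0 and with 5 or more Madcam1 UMIs, each line joining the sums of 1 pool (circles WT, triangles Xbp1-KO; filled library 1, open library 2). Nkx2-3, Stra6, Slco2a1 and Pltp are higher with Madcam1 in all 4 pools, Tgm2, Chst2 and Cd300lg are lower in all 4, and Nr2f2 is higher in 3 of 4.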

How the data were processed

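Per the file headers and the submitters' processing notes, the authors aligned the droplet reads to mm10 and counted them with Cell Ranger (6.0.1 in the file headers, 6.1 in the notes). The deposited values are raw UMI counts per gene or tag and barcode, in 2 libraries of 33024170 and 14744778 gene UMIs; no column was left unused (0). The gate was applied to each barcode, and raw counts were summed per library and tag. No doublet caller was run; the tag rule, the limit on immune UMIs and, where applied, the lymphatic exclusion bear on doublets. The members, gene lists and tests were chosen with earlier results of these data known.

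Sums were tested in R 4.3.3 with edgeR 4.0.16 (TMM scaling, genes filtered at a minimum count of 10 and a minimum total of 15, robust quasi-likelihood fit), with genotype and library as terms and Benjamini-Hochberg adjustment over all genes tested. Each library held the same 4 tags per the labels, so the library is a shared batch and a block in the fit. A gene was called at an adjusted p under 0.05. DESeq2 1.42.0 and limma 3.58.1 (pseudocount of 10 CPM) served as alternatives. The fits were tested on simulated data. Of 32285 gene IDs, 32235 (99.8%) matched GENCODE M21. Other blood endothelial cells were outside the gate (Glycam1 under 20 and Ccl21a under 10 UMIs), had no UMI of Prox1, Lyve1, Mmrn1 or Reln, and at least 2 of Cdh5, Pecam1, Emcn and Flt1. Their levels and site differences are from cells with a leading tag at least 3 times the next. The class test under both exclusions used those with a leading tag at least 10 times the next.

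Named genes were the 12 with the largest difference in each direction among calls with the same sign in 4 of 4 pairs of pools, called members of the lists, 12 genes named whatever their result, and the 5 with the smallest p of each interaction. Marcks and the genes called only under the exclusions or within mesenteric cells were chosen after their values were seen. Of the calls under both exclusions, 1 is not reported here.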

Additional observations from a re-analysis of the deposited data

Results flagged for a closer look

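Of 58 groups of 4 sums examined over 29 genes, 2 held a sum far from the others by Dixon's criterion, which chance gives for about 1 group in 20. Atf3 stood at 667.0 CPM (367 UMIs) in the Xbp1-KO mesenteric sum of library 2, against 164.8 to 204.1 CPM in the other 3. St6gal1 stood at 6.24 CPM, from 2 UMIs, in the Xbp1-KO peripheral sum of library 1 and at 0 in the other 3.

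For Atf3 the site difference of Xbp1-KO pools minus that of WT pools was -2.89 on the log2 scale, a difference between the genotypes that did not pass under both exclusions (-1.54). The site difference in high endothelium minus that in the other blood endothelium passed for 96 genes in the gate as given, of which the 5 with the smallest p were Ccn1 (2.16; 0.61 and no longer past the threshold under both exclusions), Serpina1b (-1.998), Serpinb1a (-1.76), Igfbp4 (1.71) and Enpp2 (-1.25).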

How the results depend on the processing

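Over all single-gene values and alternatives, 740 kept their direction and side of the threshold, 121 lost the threshold, 89 gained it and 83 changed sign. The counts of the gate as given (2 higher and 1 lower) moved to 1 and 0 with DESeq2's Wald test, 7 higher with DESeq2 size factors, 39 and 17 in WT pools alone, 1 higher in Xbp1-KO pools alone, 0 and 0 with limma on means, with thinned sums and without the deepest 5% of cells, 5 higher with limma voom and with a mean of at least 10 UMIs, 55 and 29 with no filter, 1 higher with stricter cell quality, 4 and 4 with the stricter gate, 3 lower with the scaled gate, 6 higher without cells with mural markers, 8 and 14 under both exclusions, 10 and 18 with the stricter tag rule and 8 and 15 without lymphatic cells. Leaving out pools or libraries gave 0 to 52 and 0 to 7.

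Without the replicate block of the library, 0 genes passed in either direction. With a replicate block of 4 pairs, 16 were higher and 5 lower. Under both exclusions, the fit with no replicate block gave 5 higher and DESeq2's Wald test 5 lower, and leave-outs gave 2 to 11 and 4 to 18. With a replicate block of 4 pairs, those cells gave 7 higher and 11 lower. The class test gave 23 positive and 4 negative with the Wald test, 31 positive with no replicate block, 3 and 0 with thinned sums, 10 and 14 under both exclusions and 9 and 11 with the stricter tag rule, and 7 to 47 and 9 to 16 over leave-outs. The single genotype call became 0 with the Wald test, no replicate block, thinned sums and the stricter tag rule. Within mesenteric cells a limit of 1 UMI gave 7 and 7, no filter 32 and 24, and both exclusions 5 lower, with leave-outs at 5 to 16 and 3 to 17. The share of cells with Madcam1 was 57.9% in thinned mesenteric cells and 4.88% in peripheral cells under the stricter tag rule.

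The following changed sign against the gate as given, and the cause was not tested. DESeq2's Wald test gave Dnajb1 -0.0081, no replicate block gave Dnajb1 -0.0073, and WT pools gave Gcnt1 -0.31, Hspb1 0.039 and Klf2 0.31. Xbp1-KO pools gave Chst4 0.48, Enpp2 0.11, Ubd 0.11, Atf3 -1.27, Dnajb1 -0.76 and Hspa1b -0.25. The scaled gate gave Ubd 0.018, Atf3 -0.36, Dnajb1 -0.41 and Hspa1b -0.53. Limma on means gave Gcnt1 -0.10, Ubd 0.043, Atf3 -0.11, Dnajb1 -1.02 and Hspa1b -0.45, and limma voom gave Chst4 0.0082, Ubd 0.018 and Atf3 -0.078. No filter gave Gcnt1 -0.073, Atf3 -0.17, Dnajb1 -0.16 and Hspa1b -0.083. The stricter gate gave Fut7 0.033, Atf3 -0.24, Dnajb1 -0.16 and Hspa1b -0.21. Thinned sums gave Fut7 0.16, Cd34 0.11, Enpp2 0.32, Ubd 0.077 and Hspa1b -0.14. Both exclusions gave Chst4 0.19, Fut7 0.13, Ubd 0.21, Atf3 -1.71, Dnajb1 -1.76 and Hspa1b -4.19. The stricter tag rule gave Fut7 0.13, Ubd 0.077, Atf3 -1.23, Dnajb1 -1.54 and Hspa1b -1.59. Leaving out lymphatic cells gave Chst4 0.21, Fut7 0.079, Ubd 0.30, Atf3 -1.32, Dnajb1 -1.85 and Hspa1b -2.11, and leaving out the deepest cells gave Ubd 0.034, Dnajb1 -0.089 and Hspa1b -0.34. Over leave-outs the ranges were -0.40 to 0.57 for Atf3, -1.51 to 0.41 for Chst4, -0.46 to 0.41 for Dnajb1, -0.47 to 0.040 for Enpp2, -0.38 to 0.052 for Fut7, -0.22 to 0.35 for Gcnt1, -0.61 to 0.68 for Hspa1b, -0.84 to 0.31 for Klf2 and -0.28 to 0.095 for Ubd. Depth limits the precision: the smallest sums held 29714 UMIs in the gate as given and 12540 under both exclusions.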
